A study of Mus musculus with 6 samples.

Results

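Dcx, Tubb3, Dlx1, Dlx2, Dlx5, Gad1, Gad2, Stmn2 and Gap43 are genes of young neurons, and several of them mark migrating neuroblasts and GABAergic interneurons of the forebrain. They were read by their Ensembl identifiers from the gene tables of 6 RNA sequencing libraries, and all 9 were present among the 29267 genes listed. The libraries came from mouse neural stem cells of the OG2 strain at passage 8. The cells were sampled either in stem cell culture, called NSC here, or after differentiation under the label D2, called D2 here, which the series design ties to the collection of the differentiated samples. In each state 1 library came from cells without a ligand (control), 1 from cells with naloxone, which blocks opioid receptors, and 1 from cells with DAMGO, a synthetic enkephalin that activates the mu receptor. All 6 groups therefore share passage and strain, and each held 1 library. OG2 mice are known for a GFP reporter driven by the Oct4 promoter, which all groups would carry. Doses, exposure times, the brain region and the age of the donor animals, and the differentiation medium are not stated in the labels. The series title names the effects of naloxone on proliferation and differentiation of neural stem cells as its subject.

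Neuroblasts are the young neurons that arise from neural stem cells and transit-amplifying progenitors. In the subventricular zone they migrate in chains to the olfactory bulb, where most become GABAergic interneurons. Dlx homeodomain factors are needed for the production and migration of these cells and act upstream of the GABA-synthesising enzymes Gad1 and Gad2. Dcx and Tubb3 belong to the microtubules of the migrating cell, whereas Stmn2 and Gap43 act in the growth cone of the extending axon. In many cultures of neural stem cells these genes serve to follow neuronal differentiation.

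Totals lay between 8417074 and 13561237 expected counts, and 17124 to 17850 genes had at least 1 count in a library. Levels are given as counts-per-million (CPM), scaled by TMM, the trimmed mean of M-values. A count of 0 in 1 library allows up to 3 counts, equal to 0.222 to 0.354 CPM. Intervals and such limits cover counting error only. The 3 ligand conditions of a state served as its spread, so ± values are SD with n = 3 libraries that differ in ligand. State was tested in an additive edgeR model of state and ligand with 2 residual degrees of freedom. The labels do not say whether libraries came from separate cultures, so the p-values cover no more than the spread among these libraries, which may be technical.

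Promoter sequence is shown for the 4 genes whose values carry the comparison below and for which the RefSeq promoter table held sequence outside annotated exons: Dcx, Tubb3, Dlx2 and Gad1. That table matched 6 of the 9 genes, and Dlx5, Stmn2 and Gap43 were not among them. Each stretch is the part of the 250 bases upstream of the RefSeq start that lies outside GENCODE exons, read 5′ to 3′ on the strand of the gene, on build GRCm38.p6. Capitals mark letters of 2 of the 3 motifs searched on both strands: TATAAA, the letters of the TATA box, and CANNTG, the E-box core read by basic helix-loop-helix factors. Position relative to the start was not part of the search. TAATTA, a core read by many homeodomain factors, was the other motif. The Dcx stretch is chrX:143933312-143933469 on the minus strand, the Tubb3 stretch chr8:123411303-123411423 on the plus strand, the Dlx2 stretch chr2:71546755-71547004 on the minus strand and the Gad1 stretch chr2:70561879-70562041 on the plus strand.
Dcx: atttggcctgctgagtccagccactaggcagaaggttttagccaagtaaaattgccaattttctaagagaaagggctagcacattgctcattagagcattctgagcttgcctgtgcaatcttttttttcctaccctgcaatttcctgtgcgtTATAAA
Tubb3: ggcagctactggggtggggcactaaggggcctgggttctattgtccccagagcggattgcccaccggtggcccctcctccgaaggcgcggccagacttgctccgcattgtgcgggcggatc
Dlx2: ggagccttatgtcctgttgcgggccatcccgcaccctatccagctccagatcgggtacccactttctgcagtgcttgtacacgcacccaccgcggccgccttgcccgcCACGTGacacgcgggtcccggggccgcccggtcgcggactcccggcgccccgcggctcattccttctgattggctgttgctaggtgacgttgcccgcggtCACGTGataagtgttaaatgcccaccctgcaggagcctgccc
Gad1: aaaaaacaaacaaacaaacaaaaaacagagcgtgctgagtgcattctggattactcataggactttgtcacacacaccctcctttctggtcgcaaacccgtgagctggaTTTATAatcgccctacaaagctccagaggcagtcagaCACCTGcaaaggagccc

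The 4 stretches differed in base composition. GC content was 42.4% for Dcx and 46.6% for Gad1, against 67.8% for Tubb3 and 66.4% for Dlx2, and the Dlx2 stretch held 24 CpG dinucleotides against 1 in that of Dcx. The stretches of Dcx, Tubb3, Dlx2 and Gad1 end 92, 129, 0 and 87 bases before the RefSeq start. The Dcx stretch ends in TATAAA, a match that 7.57% of the 32851 promoter windows hold over the same positions. Another RefSeq window of Dcx held the last 63 bases of the same stretch, which end 187 bases before its start. In the Dlx2 stretch both E-box cores read CACGTG, and 66.2% of windows hold at least 1 CANNTG there. The Gad1 stretch holds CACCTG and, on the opposite strand, TATAAA, found in 52.1% and 7.78% of windows. The Tubb3 stretch held none of the 3 motifs, and TAATTA was in none of the 4 stretches. The RefSeq start of Gad1 lies inside the span that GENCODE gives the gene. A match describes letters in this window and no binding.

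Differentiation was accompanied by higher levels of Dcx, Tubb3, Dlx1 and Dlx2, a lower level of Gap43 and a level of Gad1 that did not pass the test. Dlx5, Gad2 and Stmn2 stayed at a few counts per library in both states. Of the 9 genes, 6 averaged at least 10 counts per library and were tested. Of these 6, 4 rose, 1 fell and 1 was not called (edgeR, adjusted p under 0.05). Over all 13216 genes tested, 40.0% rose and 39.8% fell (79.8% in either direction), so a call in either direction was the usual outcome for a tested gene. The median log2 fold change of the 6 genes was 2.40, against 0.00 for all tested genes. These are bulk libraries, in which fewer cells of a type and less RNA per cell cannot be told apart.

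**Figure D1:**
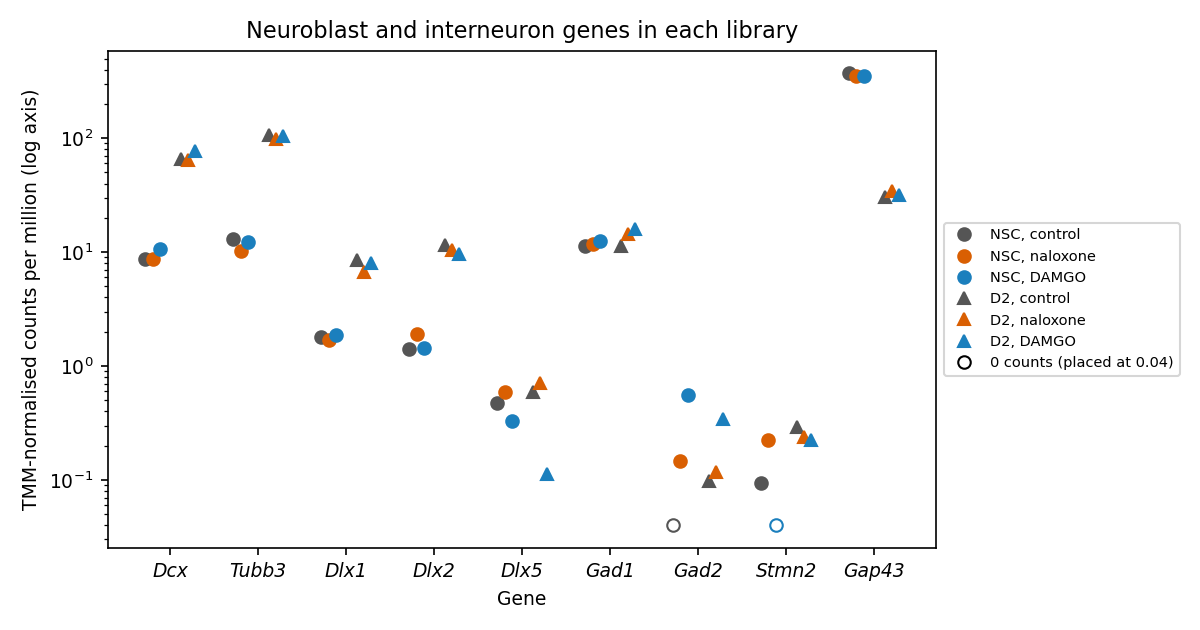
TMM-normalised CPM of the 9 genes in each of the 6 libraries on a log axis, with circles for NSC, triangles for D2, colours for the ligand conditions and open symbols for libraries with 0 counts. Dcx, Tubb3, Dlx1 and Dlx2 lie higher in the D2 libraries, Gap43 lies lower, and the Gad1 values of the states overlap.

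Dlx1 and Dlx2, neighbouring homeobox genes that act early in GABAergic lineages, were low in NSC and higher in D2. Dlx2 (ENSMUSG00000023391, chromosome 2, 71543408 to 71546754, minus strand, mm10) was at 1.42, 1.92 and 1.43 CPM in the NSC libraries with control, naloxone and DAMGO, and at 11.5, 10.5 and 9.62 CPM in the D2 libraries in the same order. The lowest D2 library lay above every NSC library. The log2 fold change was 2.71 (SE 0.20; edgeR, adjusted p = 9.98e-08). Counts behind these levels were small, 13 to 26 in NSC and 85 to 117 in D2. The D2 to NSC ratio was 8.10 in control, 5.47 with naloxone and 6.71 with DAMGO, and the exact binomial 95% counting intervals of these ratios (4.72 to 14.9, 3.50 to 8.82 and 3.72 to 13.1) overlapped.

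Dlx1 (ENSMUSG00000041911, chromosome 2, 71528113 to 71533981, plus strand) was at 1.79, 1.70 and 1.87 CPM in NSC and at 8.44, 6.73 and 8.03 CPM in D2, without overlap. It rose with a log2 fold change of 2.10 (SE 0.21; edgeR, adjusted p = 1.46e-06). Its counts were 19, 23 and 17 in NSC and 86, 57 and 71 in D2. The deposited transcripts-per-million values (TPM), levels per length, were less even within a state, at 3.02, 1.06 and 1.17 in NSC and 5.08, 4.90 and 8.74 in D2. The D2 to NSC ratio of TPM was 1.68 in control, 4.62 with naloxone and 7.47 with DAMGO, against count-based ratios of 4.70, 3.96 and 4.29. The effective length that RSEM had assigned to Dlx1 was 1262.95 bases in the NSC control, 3433.54 and 3458.50 in the other NSC libraries, and 3607.68, 3048.67 and 1967.51 in D2, so the libraries with the shortest length had the highest TPM of their state. The antisense gene Dlx1as, which overlaps Dlx1, had 3 to 9 counts per library. Since the library kit does not mark strand, reads within bases shared by the pair cannot be told apart by strand.

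Dlx5 (ENSMUSG00000029755, chromosome 6, 6877805 to 6882085, minus strand), another Dlx factor of GABAergic lineages, did not follow Dlx1 and Dlx2. It had 5, 8 and 3 counts in NSC and 6, 6 and 1 in D2, under the limit of 10 counts set for the test. The ratio of the summed counts, 13 in D2 to 16 in NSC, was 0.980 with an exact 95% counting interval of 0.434 to 2.17. That interval lies below the D2 to NSC ratios of the summed counts of Dlx1, 4.38 (3.27 to 5.94), and Dlx2, 6.50 (4.85 to 8.86). Its neighbours in the same cluster were also low: Dlx6 had 9 to 25 counts per library and did not pass the test (log2 fold change −0.15, SE 0.35; edgeR, adjusted p = 0.708), and the noncoding gene Dlx6os1 had 3 to 14 counts.

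**Figure D2:**
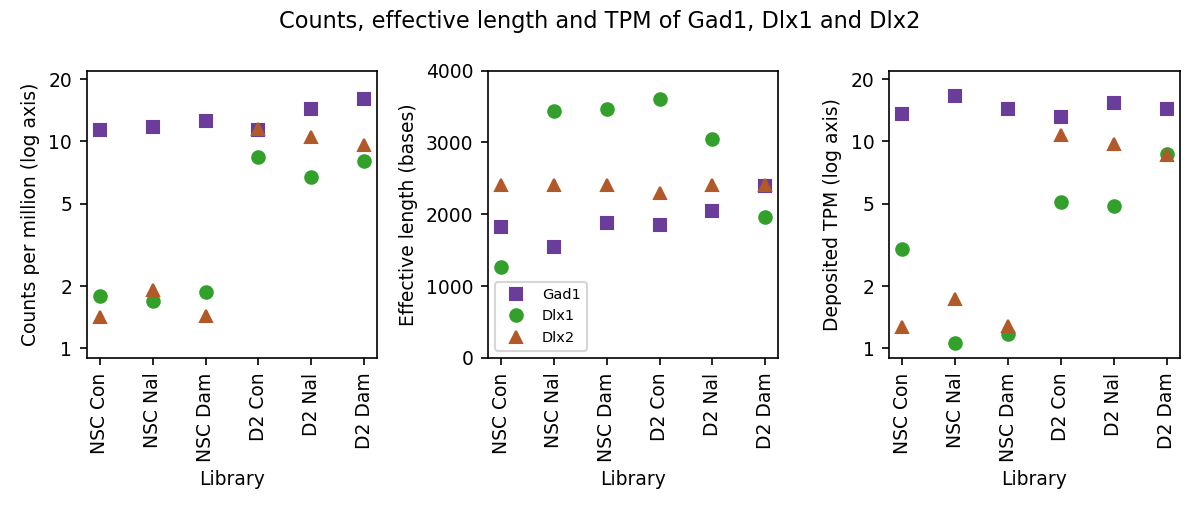
Gad1, Dlx1 and Dlx2 in each of the 6 libraries: TMM-normalised CPM (left, log axis), effective length in bases from the deposited tables (middle) and deposited TPM (right, log axis). For Dlx1 the library with the shortest effective length of each state (NSC control, D2 with DAMGO) has the highest TPM, while the CPM of a state lie close together.

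Gad1 encodes GAD67, the enzyme that makes most GABA in the brain, and Gad2 encodes GAD65, the form concentrated at nerve terminals. Gad1 (ENSMUSG00000070880, chromosome 2, 70553072 to 70602014, plus strand) was at 11.4, 11.8 and 12.5 CPM in NSC and at 11.3, 14.3 and 16.0 CPM in D2. The D2 control lay below all 3 NSC libraries and the other D2 libraries above them. The log2 fold change was 0.21 (SE 0.12, 95% interval −0.06 to 0.48; edgeR, adjusted p = 0.139). That interval holds 0 and ends below the fitted changes of Dcx, Tubb3, Dlx1 and Dlx2. By TPM the estimate was −0.04 (SE 0.10; limma on log2(TPM + 1), adjusted p = 0.715), and effective lengths were 1544 to 1884 bases in NSC and 1853 to 2391 in D2. The overlapping antisense gene Gad1os had 0 to 6 counts per library.

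Gad2 (ENSMUSG00000026787, chromosome 2, 22622205 to 22693874, plus strand) had 0, 2 and 5 counts in NSC and 1, 1 and 3 in D2, some of them fractional estimates before rounding. The summed ratio was 0.862, with an interval of 0.216 to 3.15. A difference within that interval was not detectable at this depth. Slc32a1, the vesicular GABA transporter, had 2 counts over all 6 libraries. For a gene at 0 in all of them the limit is 0.0494 CPM, and Sst, Vip, Th, Tac1 and Crh, which mark subtypes of interneurons, were at 0 throughout.

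Dcx and Tubb3, the microtubule genes of the set, had the highest fitted rises of the 6 tested genes. Dcx (ENSMUSG00000031285, chromosome X, 143855842 to 143933311, minus strand) encodes doublecortin, which binds and stabilises microtubules in migrating neuroblasts. It was at 8.78, 8.73 and 10.7 CPM in NSC and at 66.1, 64.6 and 77.5 CPM in D2, with 93 to 118 and 547 to 685 counts. No D2 library came near an NSC library, and in both states the DAMGO library was the highest. The log2 fold change was 2.88 (SE 0.08; edgeR, adjusted p = 1.84e-11), and the ratio was 7.53, 7.40 and 7.25 in control, naloxone and DAMGO. Tubb3 (ENSMUSG00000062380, chromosome 8, 123411424 to 123422015, plus strand) encodes the beta-III tubulin of neurons. It was at 13.0, 10.3 and 12.3 CPM in NSC and at 107, 99.0 and 105 CPM in D2. The naloxone library was the lowest of its state in both cases, and the states did not overlap. The log2 fold change was 3.13 (SE 0.08; edgeR, adjusted p = 6.53e-12), with ratios of 8.23, 9.63 and 8.52. Gm20388, a gene model on the same strand that overlaps Tubb3, had 252 to 558 counts per library. The expected counts of Tubb3 lay within 0.05 of a whole number in every library. A division of reads between these models was not tested.

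Stmn2 and Gap43, both known from growing axons, differed widely in level. Stmn2 (ENSMUSG00000027500, chromosome 3, 8509360 to 8561606, plus strand), a microtubule-destabilising stathmin of growth cones, had 1, 3 and 0 counts in NSC and 3, 2 and 2 in D2. The summed ratio of 2.11 had an interval of 0.537 to 9.84, which also holds the 7.47 of the summed Dcx counts, so a difference of that size was not detectable at this depth. Gap43 (ENSMUSG00000047261, chromosome 16, 42248442 to 42340651, minus strand), a membrane protein of growth cones that is also known from glial progenitors, was the most abundant of the 9 in NSC. It was at 371, 351 and 354 CPM in NSC and at 30.4, 34.6 and 31.8 CPM in D2, and every D2 library lay far below every NSC library. Its log2 fold change was −3.48 (SE 0.07; edgeR, adjusted p = 9.8e-13), an 11.13-fold lower level in D2. The D2 to NSC ratio was 0.0820 in control, 0.0985 with naloxone and 0.0899 with DAMGO.

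**Figure D3:**
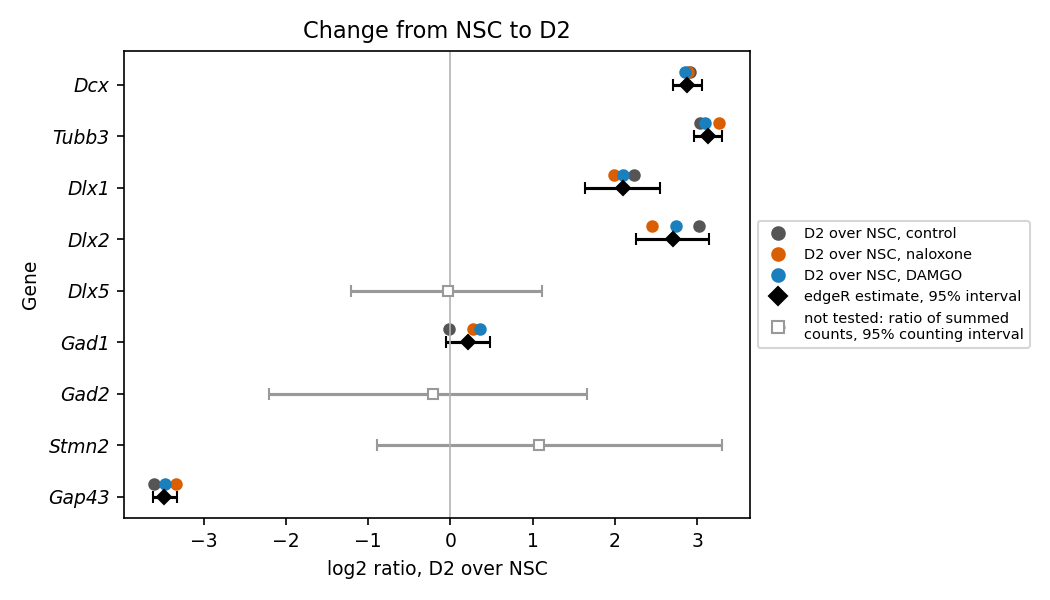
log2 ratio of D2 over NSC for the 9 genes: diamonds are edgeR estimates with 95% intervals, dots the ratio within each ligand condition, and open squares the ratio of summed counts, with its counting interval, of the 3 genes that were not tested. Tubb3, Dcx, Dlx2 and Dlx1 lie between 2.10 and 3.13, Gad1 at 0.21 with an interval that includes 0, and Gap43 at −3.48.

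The order of the genes by TPM changed between the states. In NSC, Gap43 was at 576 ± 16.4 TPM, far above Gad1 at 14.8 ± 1.58 and Tubb3 at 14.3 ± 1.72, whose libraries overlapped. Dcx at 2.69 ± 0.353, Dlx1 at 1.75 and Dlx2 at 1.43 TPM followed, each overlapping its neighbour, then Dlx5 at 0.770, Stmn2 at 0.113 and Gad2 at 0.0867 TPM. In D2, Tubb3 led at 126 ± 3.80 TPM, followed by Gap43 at 52.1 ± 4.12, Dcx at 20.1 ± 1.53 and Gad1 at 14.3 ± 1.11, with no overlap between neighbours down to Gad1. Dlx2 at 9.69 and Dlx1 at 6.24 TPM overlapped, and Dlx5 (0.820), Stmn2 (0.260) and Gad2 (0.170) again came last. Tubb3 was in the third place in NSC and the first in D2, and Gap43 was in the first and then the second.

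Naloxone and DAMGO were compared with control over both states. None of the 6 tested genes was called for either ligand (edgeR, adjusted p of 1.00 for each), in comparisons that each called 2 of 13216 genes (0.0151%), 1 higher and 1 lower (0.00757% in each direction). At an unadjusted p under 0.05 there was 0 of 6 for naloxone and 1 of 6, Dcx, for DAMGO, beside 293 and 317 of all 13216 genes. Neither DESeq2 nor limma called any of the 6. The fitted DAMGO change of Dcx was 0.24 on the log2 scale (SE 0.09), and that of Gad1 was 0.32 (SE 0.15). The fitted naloxone change of Tubb3 was −0.18 (SE 0.09). The naloxone and DAMGO comparisons share their control libraries.

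Within a state each ligand is 1 library against another, with no replicate check. Over the 6 tested genes there were 24 such ratios to the control, from 0.789 to 1.41, and the counting interval excluded 1 in 4 of them. The share of all genes with such an interval was not computed, so this count is no result about the 6 genes. In D2, Gad1 with DAMGO was at 1.41 times the control (1.10 to 1.83) by counts and at 1.09 times by TPM. Dcx in D2 with DAMGO was at 1.17 times the control (1.05 to 1.31) and at 1.07 times by TPM. Between the ligands, Dcx in D2 with naloxone was at 0.834 times its level with DAMGO (0.744 to 0.934) by counts but at 1.09 times by TPM. The effective length of Dcx ranged from 6572 to 8368 bases in D2. Gap43 in NSC was at 0.947 times the control with naloxone (0.908 to 0.989) and at 0.953 times with DAMGO (0.910 to 0.999). These intervals hold no variation between cultures.

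**Figure D4:**
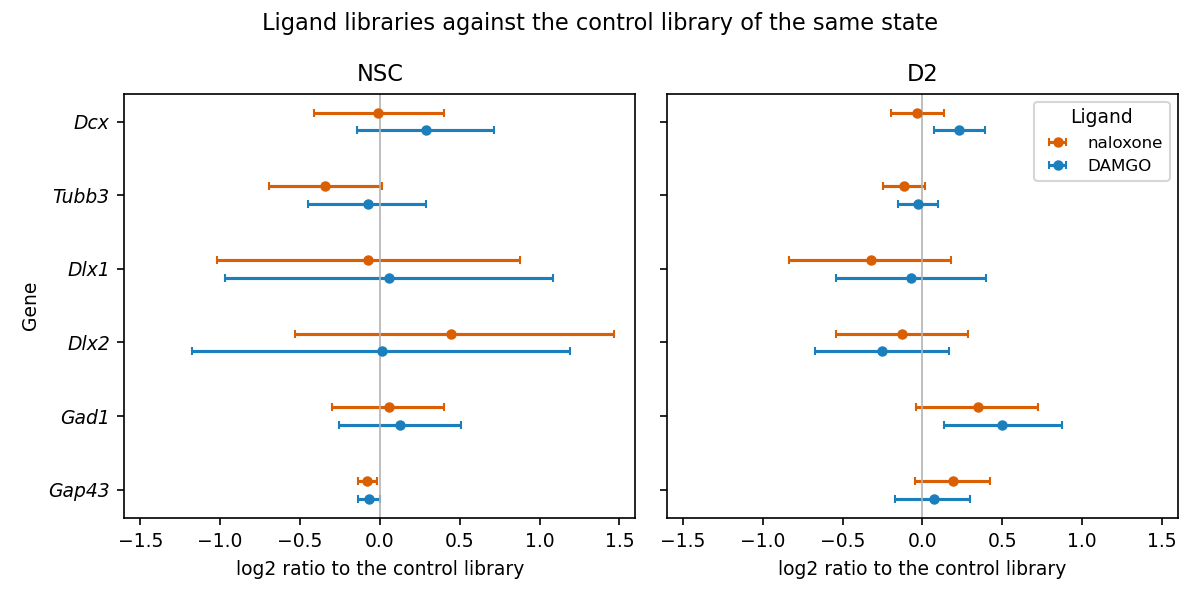
log2 ratio of the naloxone and the DAMGO library to the control library of the same state for the 6 tested genes, with exact binomial 95% counting intervals as bars, NSC left and D2 right. The ratios lie between 0.789 and 1.41 on a linear scale, and the intervals of Dlx1 and Dlx2 are the widest.

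Other genes of the same programmes were read from the same edgeR fit. Some passed the limit of 10 counts only through the state in which they are high, so their direction was set by that limit. Their values are given as a description, and each list is counted over genes that averaged at least 10 counts in each state. Over all genes 12421 did so, of which 4985 rose and 4885 fell. Of 23 proneural and neuroblast transcription factors, 11 did so, 9 rose and 2 fell. The 2 that fell were Neurod1, from 4.35 ± 0.784 to 1.53 ± 0.214 CPM, and Sox11, from 232 ± 3.35 to 108 ± 9.29 CPM. Neurog2, a basic helix-loop-helix factor of neurogenesis best known from glutamatergic lineages, had 5, 7 and 3 counts in NSC and 195, 191 and 218 in D2, and passed only through D2. Scrt1, a zinc finger repressor of newborn neurons, rose from 2.51 ± 0.129 to 22.8 ± 1.13 CPM, and Sox4, a factor of neuronal precursors, rose from 395 ± 12.9 to 1619 ± 116 CPM. Of 33 subpallial and interneuron factors, 22 were counted, 13 rose and 4 fell. The 4 that fell were Ebf1 (log2 fold change −0.94, SE 0.18), Pbx3 (−0.86, SE 0.09), Meis2 (−0.27, SE 0.05) and Prox1 (−0.23, SE 0.08). Sp9, a factor of striatal and olfactory bulb interneuron lineages, rose from 1.31 ± 0.395 to 5.55 ± 0.940 CPM. Lhx6, needed by cortical interneurons of the medial ganglionic eminence, had 2 counts over all 6 libraries.

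The genes that handle GABA moved in both directions. Of 13 genes of GABA synthesis, transport and breakdown, 9 were tested, 6 rose and 2 fell (median 1.08). Abat, the transaminase that breaks GABA down, rose from 30.4 ± 3.03 to 655 ± 29.5 CPM. Slc6a11, the GABA transporter GAT3 of astrocytes, rose from 183 ± 8.42 to 2166 ± 103 CPM, and Glud1, glutamate dehydrogenase, from 286 ± 3.06 to 2262 ± 77.2 CPM. Of 15 genes of GABA receptors and their anchor gephyrin, 6 were tested. Gabbr1 and Gabbr2, the subunits of the GABA-B receptor, rose (log2 fold changes 2.07, SE 0.05, and 1.76, SE 0.06). The other 4 fell (median of the list −0.53), with Gabra2 at −3.74 (SE 0.12) and Gabrg1 at −1.12 (SE 0.08). Of 17 interneuron peptides and subtype markers 12 were too low for the test. Pvalb, Npy and Calb2, for instance, had 2, 11 and 22 counts over all 6 libraries. The other 5 were tested, and all 5 rose. Among them were Ackr3 and Cxcr4, receptors of the chemokine Cxcl12 that guides interneuron migration (3.45, SE 0.11, and 2.76, SE 0.15), Erbb4, a neuregulin receptor (2.87, SE 0.14), and Reln (2.45, SE 0.20).

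Tubb3 rose beside a tubulin family in which more genes fell than rose. Of 13 other tubulin genes, 12 were tested, 4 rose and 7 fell (median −0.53). Tubb6 fell from 186 ± 4.62 to 14.1 ± 1.22 CPM, Tubb4b from 422 ± 14.1 to 125 ± 3.87 CPM and Tuba1b from 1951 ± 29.0 to 581 ± 31.4 CPM. Tuba4a (log2 fold change 1.99, SE 0.31), Tubb2b (0.73, SE 0.05) and Tuba1a (0.42, SE 0.05) rose, the last 2 being the abundant tubulins of developing neurons. All 20 neuronal microtubule regulators were tested, of which 12 rose and 6 fell (median 0.47). Dpysl4 and Dpysl3, of the collapsin response mediator family, rose (2.48, SE 0.09, and 1.51, SE 0.05), as did the kinesin Kif5a (2.33, SE 0.12), whereas Map1b (−1.45, SE 0.06) and Stmn1 (−0.70, SE 0.05) fell. Map2, abundant at 1101 ± 26.9 CPM in NSC, did not pass the test (0.02, SE 0.04; edgeR, adjusted p = 0.726).

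Growth cone and migration genes were likewise mixed beside the fall of Gap43. Of 22 growth cone and axon genes, 17 were counted, 11 rose and 3 fell. The intermediate filament gene Ina (1.89, SE 0.08), the adhesion gene Nrcam (1.31, SE 0.06) and Marcksl1 (1.13, SE 0.05) rose, and Chl1 (−1.87, SE 0.08) and Nefm (−1.41, SE 0.16) fell. Of 23 genes of neuroblast migration and early neurons, 20 were counted, 14 rose and 4 fell. Nsg2, an endosomal protein of neurons, rose from 25.8 ± 2.18 to 242 ± 5.07 CPM, and Rbfox3, which encodes NeuN, rose from 1.62 ± 0.330 to 5.58 ± 1.52 CPM. Sema3c, at 15.0 ± 0.785 CPM in NSC and 0.498 ± 0.171 CPM in D2, passed only through NSC. Cd24a, a surface marker of neuroblasts, was at the threshold (0.13, SE 0.06; edgeR, adjusted p of 0.05 after rounding) and was lost with DESeq2 (adjusted p = 0.108) and limma on log2(TPM + 1) (adjusted p = 0.0907). No gene of any of these lists was called for naloxone or DAMGO.

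**Figure D5:**
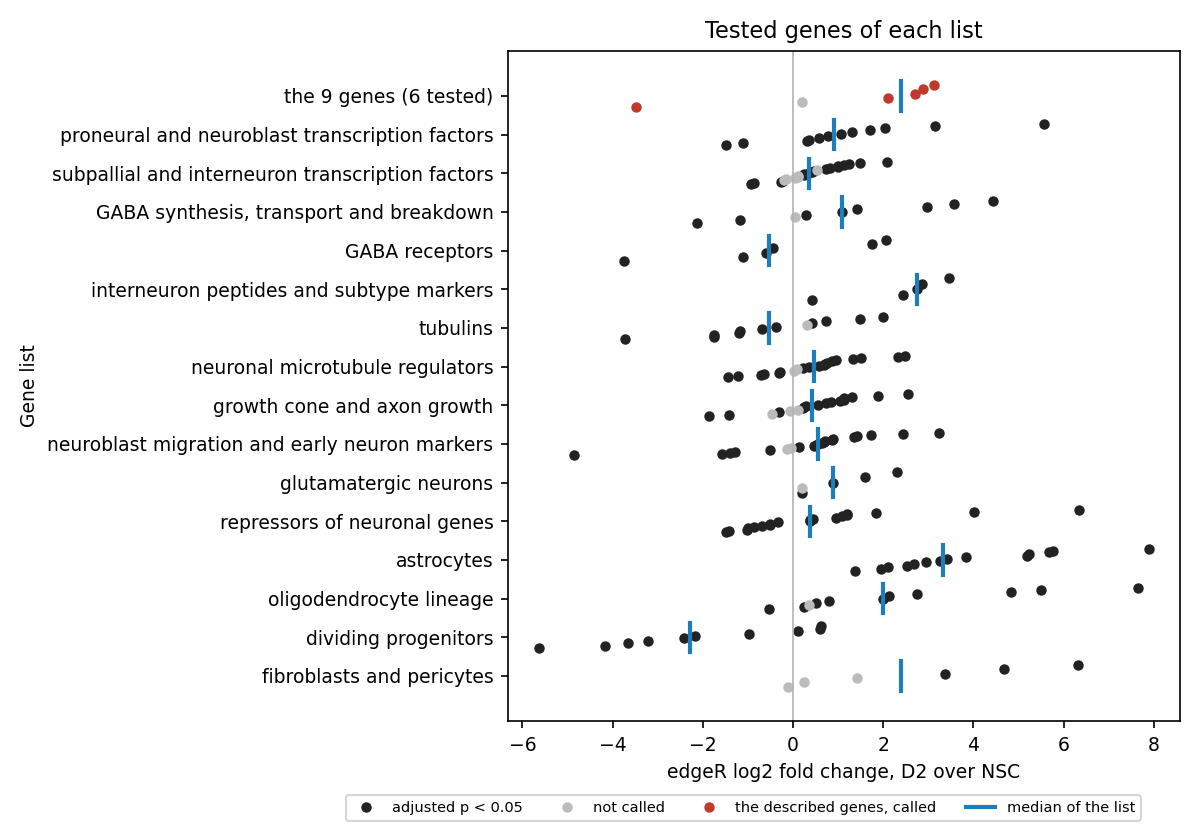
edgeR log2 fold change, D2 over NSC, of each tested gene of the 9 genes and of other lists, with the median of each list as a vertical bar. The tubulin list has a median of −0.53 while Tubb3 is at 3.13, and the 14 astrocyte genes, 1 of which passed the count limit only through D2, lie to the right of 0.

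Markers of other cell types moved with the state as well. Of 14 astrocyte markers 13 averaged at least 10 counts in each state and all 13 rose, while Gfap passed only through D2 (1, 3 and 2 counts in NSC; 70, 96 and 96 in D2). The summed level of the 14 was 1807 to 1892 CPM in the NSC libraries and 12657 to 13109.8 CPM in D2. Of 14 oligodendrocyte lineage markers 9 averaged at least 10 counts in each state, of which 7 rose and 1 fell; Sox10 and Mbp passed only through D2. Their sums were 3301 to 3422 CPM in NSC and 6278 to 7051 CPM in D2. Of 10 markers of dividing progenitors 7 fell and 3 rose, with sums of 11299.5 to 11422 and 3299 to 3455 CPM. The summed level of the 9 neuroblast and interneuron genes was 387 to 408 CPM in NSC and 231 to 249 CPM in D2, and Gap43 holds most of the NSC sum. Of 12 glutamatergic markers 5 were tested and 4 rose, among them Cux2 (1.59, SE 0.10), Lmo3 (0.89, SE 0.06) and Emx2 (0.21, SE 0.08). The Emx2 call was lost with DESeq2 (adjusted p = 0.179) and without any 1 of the 4 ligand libraries, and its estimate was −0.07 with limma on log2(TPM + 1). Slc17a6 was at 0 in all libraries. Microglial markers summed to 1.47 to 5.62 CPM with Cx3cr1 and Tyrobp at 0, and endothelial markers to 3.19 to 4.82 CPM with Cldn5 at 0. Fibroblast and pericyte markers summed to 1.43 to 12.1 CPM in NSC and 39.7 to 50.3 CPM in D2, where Myl9 alone was at 23.5 ± 2.33 CPM. Of these 9 markers 6 were tested: Pdgfrb, Myl9 and Acta2 rose, and Col1a1, Col1a2 and Col3a1 were not called. Only 3 of the 9 averaged at least 10 counts in each state, of which 1, Myl9, rose. The part of these cell types in the changes of the 9 genes was not tested.

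Among 10487 genes of at least 5 CPM, the gene with the most similar profile over the 6 libraries was found for each of 5 of the 9 genes. Likeness was the Euclidean distance of centred log2 CPM values. It was Ctsf for Dcx (distance 0.159), Slc1a1 for Tubb3 (0.151), Pgpep1 for Dlx2 (0.147), Ogt for Gad1 (0.149) and Stil for Gap43 (0.0492). Stil, a centriole duplication gene of dividing cells, was at 98.7 CPM in NSC and 8.84 CPM in D2. Its state log2 fold change, −3.48, was that of Gap43 after rounding. Slc1a1, a neuronal glutamate transporter, was at 11.1 and 99.0 CPM. Dlx1 fell below the level limit of this comparison. The values of such a pair share libraries and depth, and the likeness is a description.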

How the data were processed

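RNA sequencing libraries were made from total RNA, extracted with Trizol, with an Illumina TruSeq RNA kit that does not mark strand, per the labels' protocols. Bowtie and RSEM were used with build mm10, per the submitters' processing notes; their versions and the annotation are not given in the sources. The authors deposited for each library a table of expected counts, which divide reads shared by several transcripts, together with TPM values and effective lengths. The FPKM column was not used. Of 29267 identifiers, 28756 matched GENCODE release M21, which gave symbols and coordinates. All 6 libraries were used, each assigned to its group by its title.

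Expected counts were rounded to whole numbers. The 13216 genes averaging at least 10 counts per library entered an edgeR model (version 4.0.16, R 4.3.3; TMM, glmQLFit, glmQLFTest) of state plus ligand, with Benjamini-Hochberg adjustment over all tested genes and a threshold of 0.05. The common biological coefficient of variation was 0.0529. Ratios of 2 libraries carry exact binomial 95% intervals and no test. TPM served to compare genes with each other. The scripts were tested on simulated data. Alternatives were other scalings, no filter (at least 1 count), DESeq2 1.42.0, limma 3.58.1 on log2(TPM + 1) and log2(TPM + 0.1), a likelihood ratio test, a model of state alone, and each library left out.

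The 9 genes and the 17 other lists (271 entries) were chosen with earlier results of these data known. From each list the text names up to 4 members past the threshold with the largest fold change and at least 5 CPM in 1 state, up to 2 of the most abundant, and the gene closest in profile to each of the 9. Members given as at or near 0 were named after their values were seen. So were Neurod1, Sox11, Ebf1, Pbx3, Meis2, Prox1, Dlx6, Dlx6os1, Penk, the collagen genes and Dcn. Some list members are not reported here. Promoter stretches are from RefSeq.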

Additional observations from a re-analysis of the deposited data

How the results depend on the processing

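Over the settings tried, Dcx, Tubb3, Dlx1 and Dlx2 rose, Gap43 fell and Gad1 was not called in every one. Without 1 library the state log2 fold change was 2.87 to 2.90 for Dcx, 3.06 to 3.18 for Tubb3, 2.03 to 2.16 for Dlx1, 2.56 to 2.88 for Dlx2, 0.13 to 0.31 for Gad1 and −3.55 to −3.41 for Gap43. With TPM the Gad1 estimate turned to −0.04 (pseudocount 1) and −0.05 (0.1); the cause was not tested. In the same settings Emx2 was at −0.07 in both and Map2 at −0.02 in both. Leaving out 1 library, Map2 ranged from −0.04 (D2 naloxone library left out) to 0.06, and was at −0.03 with the NSC naloxone library left out; Kdr ranged from −0.24 to 0.00, the latter without the NSC control. The other scalings moved the median log2 fold change of all tested genes by at most 0.01. The largest shift in any setting was 0.02 in size, without the filter and with limma on log2(TPM + 0.1).

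No member was called for a ligand in any setting. Fitted ligand changes near 0 turned sign without 1 library: for naloxone Dcx to 0.01 without the D2 control, Dlx2 (range −0.10 to 0.36) to −0.09 and −0.10 without the NSC control or the NSC naloxone library, and Gap43 (range −0.05 to 0.14) to −0.05 without either the D2 control or the D2 naloxone library. For DAMGO Tubb3 (range −0.15 to 0.01) turned to 0.01 without the D2 DAMGO library, Dlx1 to 0.11 and Dlx2 (range −0.29 to 0.15) to 0.15 without the D2 control, and Gap43 to 0.11 without the NSC control.

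The counts of called genes over the whole table moved. For naloxone edgeR called 0 genes with DESeq2 size factors (268 at an unadjusted p under 0.05), 45 without the filter and 10 with the likelihood ratio test. DESeq2 called 1, and limma called 0 with either pseudocount (438 and 410 unadjusted). For DAMGO edgeR called 83 without the filter and 16 with the likelihood ratio test, DESeq2 called 0 (44 unadjusted) and limma 0 with either pseudocount (478 and 452 unadjusted). Leaving out 1 library gave 1 to 74 calls for naloxone (74 without the NSC control, 39 without the NSC naloxone library, 11 without the NSC DAMGO library, 26 without the D2 control, 9 without the D2 DAMGO library, 1 without the D2 naloxone library) and 4 to 123 for DAMGO (123, 25, 46, 16, 4 and 4 in the same order). State calls lay between 9917 and 10173. The labels carry no replicate numbers and each group holds 1 library, so no replicate cultures could be paired. In the model, ligand was a factor beside state. State was thus compared within ligand conditions and the ligands within states. Depth limits Dlx5, Gad2 and Stmn2: without the filter all 9 genes were tested, and these 3 were not called for state or ligand.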

Other observations

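Of 19 genes that repress neuronal programmes, 18 averaged at least 10 counts in each state, of which 9 rose and 9 fell (edgeR). Over all 12421 genes counted in this way, 4985 rose and 4885 fell. Id4, an inhibitor of basic helix-loop-helix factors, was at 0.656 ± 0.272 CPM in NSC and 56.8 ± 4.36 CPM in D2 (SD, n = 3) and passed the count limit only through D2. Hes5 and Hey1, repressors downstream of Notch, rose from 16.2 ± 0.504 to 264 ± 15.7 CPM and from 23.1 ± 0.602 to 82.9 ± 3.59 CPM. Ptbp1, a splicing repressor of neuronal exons, fell from 409.7 ± 4.32 to 146 ± 5.39 CPM, and Zeb1 fell from 862 ± 8.03 to 436 ± 19.1 CPM.

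Penk, the enkephalin precursor, had 58 counts in the D2 control library, 1 in the NSC library with naloxone and 0 in the other 4 libraries. Its mean was under the limit of 10 counts, so it was not tested. The value rests on 1 library, and Penk was picked after its counts were seen. In the D2 control, some markers of the fibroblast and pericyte list also stood above the D2 naloxone and DAMGO libraries. Col1a1 had 49 counts against 7 and 6, Col3a1 40 against 3 and 4, and Col1a2 25 against 1 and 8. Dcn had 11 against 1 and 0, and Acta2 94 against 43 and 46. Pdgfrb and Myl9 of the same list were close across these libraries, with 78 counts against 73 and 71, and 212 against 207 and 222. In the NSC naloxone library, where Penk had 1 count, Col1a1 had 49 and Col1a2 57. The part of such cells in the Penk counts was not tested.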
